A study of Mus musculus with 2 samples.

Results

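The laminin genes described here are Lama2, Lama3, Lama4, Lama5, Lamb1, Lamb2 and Lamc1, 7 of the 25235 genes with at least 1 read in either library. They were taken by name and not by their values. Nuclei of 1 adult heart (9 weeks) and 1 aged heart (78 weeks) of female F1 mice with a C57BL/6J (BL6) mother and a CAST/EiJ (CAST) father were measured by single-nucleus RNA-seq (snRNA-seq). The labels give the genotype as C57BL/6JxCAST/EiJ and name the ∆Xist-/+ cross in the breed field, and the methods of the study describe both hearts as wild type. The values pool all nuclei of a heart in which the BL6 X chromosome was the active one, so that cell types are not separated. The nuclei were isolated from frozen hearts, sorted on the DNA dye DRAQ7 and processed with a 3′ droplet kit. Only reads over a base that distinguishes BL6 from CAST (SNP) were counted, for each gene and each allele, in exons and introns alike.

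Laminins are secreted heterotrimers of an alpha, a beta and a gamma chain and form the network on which basement membranes are built. In the heart they surround each cardiomyocyte and line the vessels, and cells bind them through integrins and through the sugar chain of alpha-dystroglycan. Lama2 encodes the alpha chain of muscle basement membranes, whose loss causes a congenital muscular dystrophy. Lama4 and Lama5 encode the alpha chains typical of vessel walls, and Lama3 one best known from epithelia such as skin. Lamb1 and Lamb2 encode alternative beta chains, and Lamc1 the gamma chain that most laminins share.

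SNP-overlapping reads numbered 9747535 for the adult heart and 5805807 for the aged heart. Levels are given on the reads-per-million scale (RPM), relative to these totals. With 1 library per age, the spread between animals is not measured and no test between the ages was made. All intervals are exact 95% intervals unless named otherwise, take each read as independent and cover counting error only. In all, 12736 genes, the laminin genes included, had at least 20 reads in each library and served as the background. Their median aged over adult ratio in RPM was 1.17 (interquartile range 0.865 to 1.56), a shift of 0.22 on the log2 scale, so a ratio of 1 lies below that of the median gene.

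All 7 laminin genes reached 20 reads in each library. Summed, their level was 3764 RPM (adult) and 3612 RPM (aged), an aged over adult ratio of 0.960 (0.943 to 0.976). This sum was dominated by Lama2, and without it the others had 1047 RPM (adult) and 1483 RPM (aged) and a ratio of 1.42 (1.38 to 1.46). Lama2, Lama3 and Lama4 were lower in the aged library and Lama5, Lamb1, Lamb2 and Lamc1 higher, and no interval of these ratios included 1. The median of the 7 ratios was 1.40. A ratio of 1.5 or more was found for 1 laminin gene, Lamc1, against 28.0% of the 12736 genes, and a ratio of 1/1.5 or less for 1, Lama3, against 11.8%. With 7 genes, neither count departs from this background in a way that could be read as a property of laminin genes. In pooled nuclei, fewer nuclei of a cell type and less RNA per nucleus cannot be told apart.

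**Figure D1:**
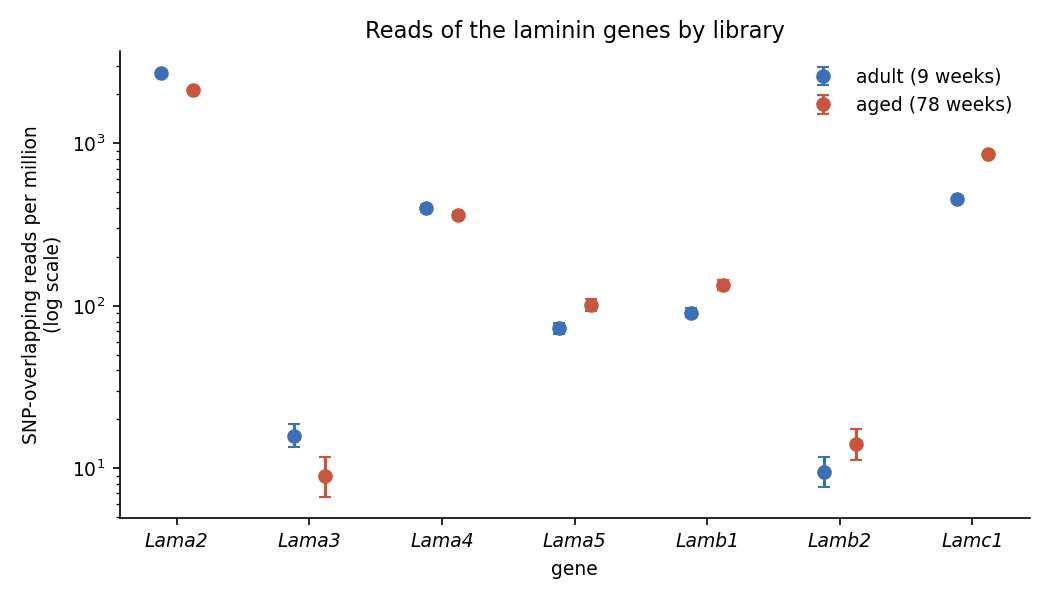
Level in RPM (log scale) of each laminin gene in the adult and the aged library, with exact Poisson 95% intervals (many are smaller than the points). Lamc1 went from 456 to 861 RPM and Lama2 from 2717 to 2129 RPM.

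Among the alpha chains, Lama2 had most reads. Its locus covers chr10:26981285-27617191 of GRCm38 on the minus strand, of which exons make up 2.57%, so reads can come from introns over most of it. It had 26484 adult reads, or 2717 RPM (2684 to 2750), and 12361 aged reads, or 2129 RPM (2092 to 2167). The aged library was thus lower, with a ratio of 0.784 (0.767 to 0.801), and 18.8% of the 12736 genes had a lower ratio. The noncoding locus 4930579H20Rik lies inside Lama2 and had 201 and 89 reads. The sources used here do not say that strand was used in counting, so these reads cannot be assigned to one of them. They are few beside those of Lama2.

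Lama4 covers chr10:38965515-39110188 on the plus strand, of which 8.34% is exonic. It had 3923 adult reads, or 402 RPM (390 to 415), and 2114 aged reads, or 364 RPM (349 to 380). Its ratio of 0.905 (0.858 to 0.954) was the closest to 1 of the 7. Against the median gene, Lama4 was at 0.776 and Lama2 at 0.672.

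Lama5 covers chr2:180176373-180225912 on the minus strand and had 707 adult reads, or 72.5 RPM (67.3 to 78.1), and 588 aged reads, or 101 RPM (93.3 to 110). Its ratio was 1.40 (1.2495 to 1.56), above that of 66.1% of the genes. Lama3 covers chr18:12333718-12583013 on the plus strand and was sparse, with 155 adult reads, or 15.9 RPM (13.5 to 18.6), and 52 aged reads, or 8.96 RPM (6.69 to 11.7). Its ratio of 0.563 (0.403 to 0.776) was the lowest of the 7, and 6.97% of the genes had a lower one. The locus Gm36232 inside Lama3 had 5 and 0 reads. Of the 4 alpha chain genes described, the aged library was thus lower for the one with most and the one with fewest reads.

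Of the beta chains, Lamb1 covers chr12:31265146-31329644 on the plus strand. It had 884 adult reads, or 90.7 RPM (84.8 to 96.9), and 776 aged reads, or 134 RPM (124 to 143). The aged level was higher, with a ratio of 1.47 (1.34 to 1.62). Lamb2 covers chr9:108479857-108490530 on the plus strand, and 57.0% of this short locus is exonic. It had 93 adult reads, or 9.54 RPM (7.70 to 11.7), and 82 aged reads, or 14.1 RPM (11.2 to 17.5). The ratio was 1.48 (1.09 to 2.01), close to that of Lamb1 but with a wide interval, and the RPM intervals of the ages overlapped.

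The gamma chain gene Lamc1 covers chr1:153218922-153332786 on the minus strand, of which 7.26% is exonic. It had 4447 adult reads, or 456 RPM (443 to 470), and 4998 aged reads, or 861 RPM (837 to 885). It was the only laminin gene with more reads in the shallower aged library, and its ratio of 1.89 (1.81 to 1.97) exceeded that of 86.1% of the genes. Against the median gene, Lamc1 was at 1.62, Lamb2 at 1.27, Lamb1 at 1.26 and Lama5 at 1.198.

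Lama5, Lamb1 and Lamb2 had similar ratios, between 1.40 and 1.48. RefSeq promoter windows (GRCm38.p6) were matched to 4 laminin genes, and stretches beyond the annotated locus were taken for these 3. Their upstream stretches are shown 5′ to 3′. These genes were taken for their windows and not for their ratios. Capitals mark the letters of 3 promoter motifs, searched on both strands. The GC box was searched as GGGCGG, the second motif, the CCAAT box, by the letters of its name, and the TATA box as TATAAA.

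Lama5: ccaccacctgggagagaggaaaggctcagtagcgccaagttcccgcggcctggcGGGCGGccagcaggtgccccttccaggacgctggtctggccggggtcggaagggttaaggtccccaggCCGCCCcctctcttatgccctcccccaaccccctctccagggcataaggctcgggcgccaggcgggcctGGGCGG

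Lamb1: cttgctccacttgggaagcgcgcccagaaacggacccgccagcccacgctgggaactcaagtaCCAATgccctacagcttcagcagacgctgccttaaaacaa

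Lamb2: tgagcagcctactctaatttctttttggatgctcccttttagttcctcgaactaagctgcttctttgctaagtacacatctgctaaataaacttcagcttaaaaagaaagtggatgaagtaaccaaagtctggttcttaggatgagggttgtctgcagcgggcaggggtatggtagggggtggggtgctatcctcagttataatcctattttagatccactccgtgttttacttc

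The Lama5 stretch (chr2:180225913-180226109, minus strand) held 3 GC boxes and 13 CpG dinucleotides in 197 bases, with a GC content of 71.6%. A GC box was found in 24.1% of 32851 RefSeq windows of the same length, whose median GC content was 51.8%. The Lamb1 stretch (chr12:31265043-31265145, plus strand) held 1 CCAAT box, as did at least 1 in 13.9% of windows of 103 bases. Its GC content was 58.3%. The Lamb2 stretch (chr9:108479612-108479846, plus strand) held none of the 3 motifs in 235 bases and had a GC content of 43.0%. These 3 genes, of like ratios, thus had upstream stretches of unlike composition. A match of letters is a description and not a binding site.

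Between genes, RPM depend on locus length and on the number of SNPs. Per kb of locus, Lama2 was highest in the adult library, with 4.27 RPM per kb (4.22 to 4.32), followed by Lamc1 with 4.01 (3.89 to 4.13) and Lama4 with 2.78 (2.70 to 2.87). Lama5 with 1.46 (1.36 to 1.58) and Lamb1 with 1.41 (1.31 to 1.502) did not differ beyond counting error. Lamb2 was at 0.894 (0.721 to 1.10) and Lama3 lowest at 0.0638 RPM per kb. In the aged library Lamc1 was highest, with 7.56 RPM per kb (7.35 to 7.77), ahead of Lama2 with 3.35 (3.29 to 3.41) and Lama4 with 2.52 (2.41 to 2.63). Lamb1 with 2.07 and Lama5 with 2.04 again lay within each other's intervals, Lamb2 was at 1.32 and Lama3 at 0.0359. Lama2 and Lamc1 thus changed places, while SNP density, which differs between loci, was not corrected for.

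Ratios of reads between chains within a library need no scaling to its total. For 1 read of Lama2 the adult library held 0.168 reads of Lamc1 (0.163 to 0.173) and the aged library 0.404 (0.391 to 0.418), 2.41 times as many. The reads of Lamc1 over those of Lama4 went from 1.13 (1.09 to 1.18) to 2.36 (2.25 to 2.49), while those of Lamb1 over Lamc1 went from 0.199 (0.185 to 0.214) to 0.155 (0.144 to 0.167). Relative to Lama2, Lama4 and Lamb1, the gamma chain gene thus had more reads in the aged library. Such ratios do not say which gene of a pair differed. Among the alpha chains, Lama2 held 84.7% of the adult reads (84.3% to 85.1%) and 81.8% of the aged reads (81.2% to 82.4%). The share of Lama4 was 12.5% (12.2% to 12.9%) and 14.0% (13.4% to 14.5%), that of Lama5 2.26% (2.10% to 2.43%) and 3.89% (3.59% to 4.21%), and that of Lama3 0.496% and 0.344%. The alpha chains of vessel walls therefore made up a larger part of the alpha reads in the aged library. Among the beta chains, Lamb2 held 9.52% (7.75% to 11.5%) and 9.56% (7.67% to 11.7%), with no difference detectable at this depth.

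The order of the ratios was related to the length of the loci. Lama2, Lama3 and Lama4, with loci of 636, 249 and 145 kb, were lower in the aged library, and Lamc1, Lamb1, Lama5 and Lamb2, with 114, 64.5, 49.5 and 10.7 kb, were higher. The same direction was present over all genes, which were examined by locus length after this order had been seen. The median ratio was 1.31 for 4831 genes under 20 kb, 1.15 for 3717 genes of 20 to 50 kb and 1.11 for 2035 genes of 50 to 100 kb. It was 1.02 for 1256 genes of 100 to 200 kb, 0.949 for 682 genes of 200 to 500 kb and 0.942 for 215 genes of 500 kb or more. Divided by the median of its length class, Lamc1 was at 1.85, Lamb1 at 1.33, Lama5 at 1.21 and Lamb2 at 1.13, whereas Lama4 was at 0.885, Lama2 at 0.832 and Lama3 at 0.594. By these values all 7 kept their side of 1, and Lamc1 and Lama4, of similar length, lay on opposite sides. For Lamb2 this was not beyond counting error, since the interval of its ratio (1.09 to 2.01) included its class median of 1.31. The part of locus length in these ratios was not tested.

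**Figure D2:**
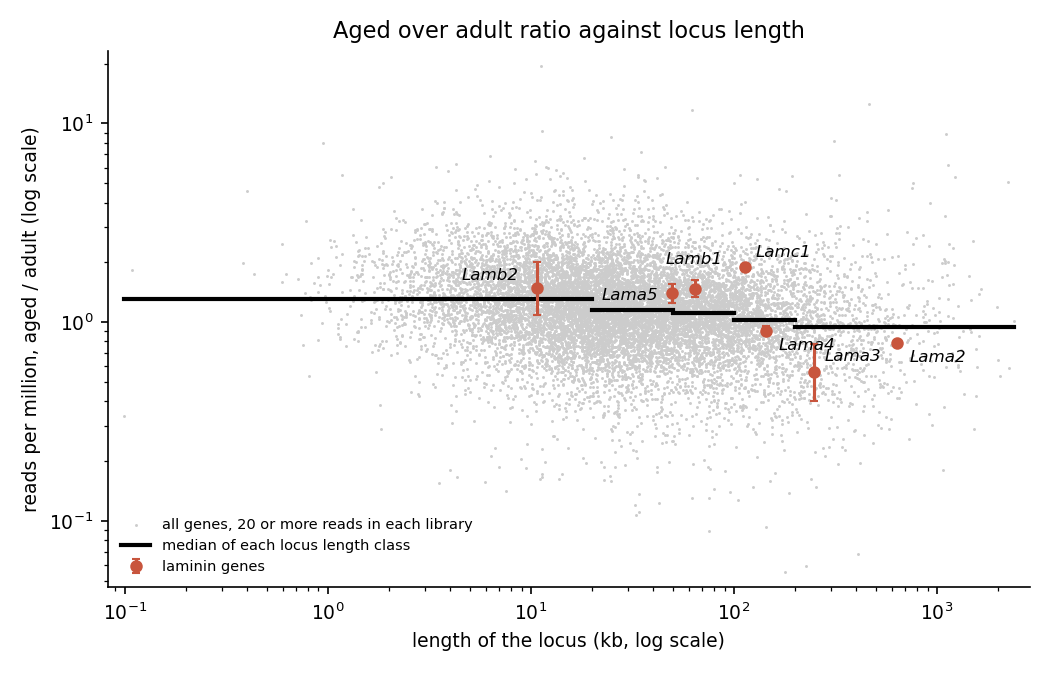
Aged over adult ratio in RPM against locus length in kb (both log scales) for the 12736 genes with at least 20 reads in each library (grey), the median of each length class (black lines) and the laminin genes with exact 95% intervals (red). The medians go from 1.31 for the shortest to 0.942 for the longest loci, and Lamc1 at 1.89 lies above the line of its class at 1.02.

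The allelic ratio is the share of BL6 reads, so 0.5 means equal alleles. Since every nucleus had a BL6 mother and a CAST father, effects of strain and of parent cannot be told apart. Whether reads of both alleles aligned equally well was not tested. Over 12390 autosomal genes its median was 0.534 (adult) and 0.537 (aged), slightly on the side of BL6. All 7 genes are autosomal, and both alleles of each were detected in both libraries.

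Lama2 had the lowest allelic ratio of the 7 in both libraries. Its 26484 adult reads split into 10576 from BL6 and 15908 from CAST, and its 12361 aged reads into 4665 and 7696. The allelic ratios were 0.399 (0.393 to 0.405) for the adult and 0.377 (0.369 to 0.386) for the aged heart. It was thus the 1 laminin gene at 0.4 or lower in both libraries, against 5.21% of the autosomal genes. The second most read gene, Lamc1, was near equality on the same side, with 0.472 (0.457 to 0.486) and 0.487 (0.473 to 0.501).

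Lama5 leaned to BL6, with 437 BL6 reads against 270 from CAST (adult) and 347 against 241 (aged). Its allelic ratios were 0.618 (0.581 to 0.654) and 0.590 (0.549 to 0.630). Lamb1 also leaned to BL6, with 498 reads against 386 (adult) and 498 against 278 (aged), or 0.563 (0.530 to 0.596) and 0.642 (0.607 to 0.676). Lama4 was nearer to equality, at 0.556 (0.540 to 0.572) and 0.525 (0.503 to 0.546). For the sparse Lamb2, 49 against 44 and 45 against 37 reads gave 0.527 (0.421 to 0.631) and 0.549 (0.435 to 0.659), with intervals that include equality. An allelic ratio of 0.6 or more in both libraries was found for 0 of the 7, against 15.4% of the autosomal genes. The allelic ratios of the 7 genes lay between 0.377 (Lama2, aged) and 0.671 (Lama3, adult), so none of the 7 came close to expression from 1 allele.

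**Figure D3:**
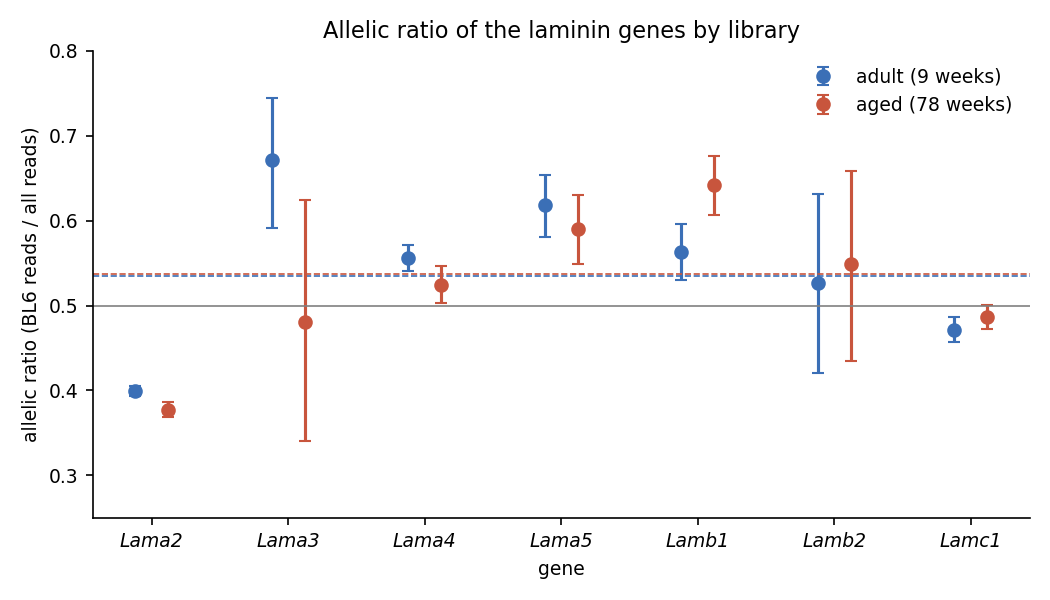
Allelic ratio (BL6 reads over all SNP-overlapping reads) of each laminin gene in the adult and the aged library, with exact 95% intervals. The grey line marks 0.5 and the dashed lines the autosomal medians of 0.534 and 0.537. Lama2 lies lowest in both, at 0.399 and 0.377, and the intervals of Lama3 and Lamb2 are wide.

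Between the ages, the allelic ratio of 1 laminin gene, Lama3, differed by 0.1 or more, against 28.0% of the autosomal genes. Lama3 had 104 BL6 reads against 51 from CAST in the adult heart, or 0.671 (0.591 to 0.744). In the aged heart it had 25 against 27, or 0.481 (0.340 to 0.624). The change (adult minus aged) was 0.190 (Newcombe interval 0.0369 to 0.337), and 16.0% of autosomal genes with 20 to 99 reads in the shallower library changed at least as much. For Lamb1 the change was −0.0784 (−0.125 to −0.0312), reached by 27.0% of the genes with 100 to 999 reads. The BL6 reads of Lamb1 went from 51.1 (46.7 to 55.8) to 85.8 RPM (78.4 to 93.7) and its CAST reads from 39.6 (35.7 to 43.8) to 47.9 RPM (42.4 to 53.9). Its higher aged level therefore came largely from the BL6 allele, with a ratio of 1.68 (1.48 to 1.90) against 1.21 (1.03 to 1.41) for CAST.

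The changes of Lama2, 0.0219 (0.0115 to 0.0323), and Lama4, 0.0316 (0.00527 to 0.0580), were outside counting error but small. Of the autosomal genes with at least 1000 reads in the shallower library, 57.8% and 43.2% changed at least as much. For Lama5, Lamb2 and Lamc1 the interval of the change included 0. Both alleles of Lamc1 were higher in the aged library, with ratios of 1.95 (1.84 to 2.07) for BL6 and 1.83 (1.73 to 1.94) for CAST. Likewise, both alleles of Lama2 were lower, with 0.741 (0.715 to 0.767) for BL6 and 0.812 (0.790 to 0.835) for CAST. In Lama3 the BL6 reads were lower, with a ratio of 0.404 (0.250 to 0.629), while the interval for CAST, 0.889 (0.536 to 1.44), included 1.

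Further laminin chains were rare. Lama1, an alpha chain of embryonic basement membranes, had 88 and 81 reads (9.03 and 14.0 RPM), a ratio of 1.55 (1.13 to 2.11). BL6 gave 82 of the 88 adult and 76 of the 81 aged reads. The allelic ratios of 0.932 (0.857 to 0.975) and 0.938 (0.862 to 0.980) were far from the values of the 7 genes above. Lamb3 had 30 and 19 reads and Lamc3 3 and 2 reads, too few for a comparison.

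Of 16 other components of basement membranes, 9 had a ratio of 1.5 or more and 2 of 1/1.5 or less, against 28.0% and 11.8% of the 12736 genes, with a median of 1.68 against 1.17. Hspg2, which encodes perlecan, went from 151 to 302 RPM, a ratio of 1.99 (1.86 to 2.14). Nid1, whose product nidogen links laminin to collagen IV through the gamma chain, went from 94.3 to 158 RPM, a ratio of 1.68 (1.53 to 1.84). The collagen IV genes Col4a1 and Col4a2 had ratios of 1.70 (1.56 to 1.85) and 1.76 (1.59 to 1.94), near that of Lamc1. Col18a1 had the highest, 3.02 (2.55 to 3.59), from 22.2 to 67.0 RPM. Fbln2 was at 1.92, Fbln1 at 1.77, Sparc at 1.73 and the laminin-related Ntn4 at 1.68. The X-linked Col4a5 and Col4a6 were lower in the aged library, with 0.523 (0.491 to 0.558) and 0.624 (0.543 to 0.714). Lama2 and these collagen genes were thus on the other side of most components.

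Of 9 laminin receptor genes, 4 had a ratio of 1.5 or more and 0 of 1/1.5 or less. Of the 12736 genes, 28.0% and 11.8% had such ratios. The median of the 9 was 1.49, against 1.17 for all genes. Itgb1, the beta subunit shared by most laminin-binding integrins, went from 162 to 251 RPM, a ratio of 1.55 (1.44 to 1.66). Its partner Itga6 was at 1.56 (1.28 to 1.90) and the muscle partner Itga7 at 1.49 (1.27 to 1.73). Bcam, a receptor for the alpha chain of Lama5, was at 2.14 (1.82 to 2.53), and Itgb4 at 2.71 (2.01 to 3.66) from 75 and 121 reads. Dag1, which encodes dystroglycan, the main muscle receptor of Lama2, was at 159 and 153 RPM, a ratio of 0.967 (0.890 to 1.05). Itga1, the alpha subunit of a receptor for collagen and laminin, was at 0.980 (0.914 to 1.05). For Dag1 and Itga1 no difference was detectable beyond counting error.

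Of 12 genes for the laminin-binding sugar chain of alpha-dystroglycan, 10 had 20 reads in each library, of which 3 had a ratio of 1.5 or more and 0 of 1/1.5 or less. Of the 12736 genes, 28.0% and 11.8% had such ratios. The median of the 10 was 1.19, near that of all genes. Pomk was at 1.80, B3galnt2 at 1.75 and Pomgnt1 at 1.63. Tmem5 was at 0.991 and Pomt2 at 1.09.

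**Figure D4:**
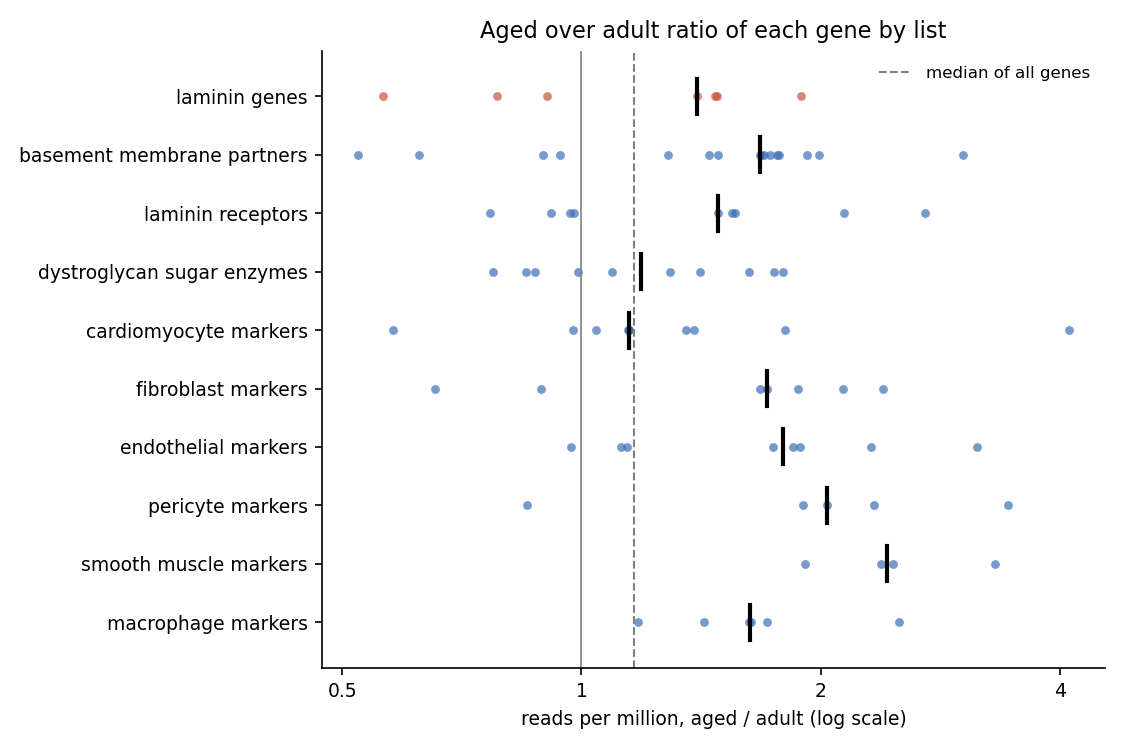
Aged over adult ratio in RPM (log scale) of each gene with at least 20 reads in both libraries, by list. Black bars mark the median of each list, the dashed line the median of all genes (1.17) and the solid line a ratio of 1. Laminin genes (red) lie on both sides of 1, and the smooth muscle markers lie at 1.91 or higher.

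Summed markers of most cardiac cell types also differed between the libraries, and cardiomyocyte markers were the most abundant, which fits the labelled tissue. The 10 cardiomyocyte markers summed to 29406 and 27994 RPM (adult and aged), a ratio of 0.952, with Ttn at 0.580 and Ryr2 at 1.15. Ttn and Ryr2 carried most of this sum, and 8 of the 10 ratios were above 1, with a median of 1.15. Past 1.5-fold, Actc1 at 4.11 and Myl2 at 1.80 were higher and Ttn was lower. Of the 12736 genes, 28.0% were 1.5-fold or more higher and 11.8% lower, the background for each such count of markers. The 8 endothelial markers summed to 757 and 1205 RPM, a ratio of 1.59, and 5 of 8 were 1.5-fold or more higher, with Tek at 1.14 and Flt1 at 1.84. The 8 fibroblast markers gave 664 and 1059 RPM, also a ratio of 1.59, and 5 of the 7 with 20 reads in each library were 1.5-fold or more higher, with Dcn at 1.68 and Pdgfra at 1.71. The other 2 were below 1, Col3a1 at 0.654 and Col1a2 at 0.888. Actc1, Myl2, Col3a1 and Col1a2 were named after their values were seen. Endothelial cells and fibroblasts both secrete matrix components. The pericyte markers summed to 122 and 227 RPM, a ratio of 1.86, with 4 of the 5 measured past 1.5-fold, Pdgfrb at 2.04 and Notch3 at 1.90. The smooth muscle markers summed to 113 and 329 RPM, a ratio of 2.92, with 4 of 4 past 1.5-fold, Myh11 at 3.32 and Acta2 at 2.38. The macrophage markers summed to 308 and 504 RPM, a ratio of 1.64, with 4 of 6 past 1.5-fold, F13a1 at 1.62 and Mrc1 at 1.63. The endothelial, fibroblast, pericyte, smooth muscle and macrophage sums were higher in the aged library, as were Lamc1, Lama5, Lamb1 and Lamb2, and their part in those values was not tested.

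Other lists were lower or sparse. The 5 mesothelial markers summed to 58.0 and 17.2 RPM, with Wt1 at 0.302 and Lrrn4 at 0.632, in the direction of Lama3. The 6 lymphocyte markers were at 20.5 and 8.61 RPM, carried by Skap1 with 172 and 30 reads and with Cd79a at 9 reads in each library, and Cd3e and Cd3g were at 0 reads in the aged library. The Schwann cell markers were at 112 and 142 RPM, nearly all from Cdh19 at 1.27. The adipocyte markers were at 23.0 and 20.5 RPM, with Cidec at 0.798 and Plin1 at 1.05. The part of these lists in the laminin values was not tested either.

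For the 3 laminin genes with at least 1000 reads in each library, the genes with the nearest pattern over 4 values were sought among 1201 genes. The values were the log2 RPM of each allele in each library, centred on the mean of the gene, and the measure was the Euclidean distance. Nearest to Lama2 were Idh1 at 0.0912 and Cd47 at 0.174, nearest to Lama4 was Tbc1d5 at 0.0611, and nearest to Lamc1 were Zfhx3 at 0.0815 and Mctp1 at 0.112. With 2 libraries this likeness rests on few values.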

How the data were processed

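snRNA-seq values of 1 adult and 1 aged heart were used, with the ages of the labels, from which the name of the aged file differs. Per the labels and the methods of the study, the authors aligned reads with Cell Ranger 7.1.0, pooled nuclei with an active BL6 X chromosome and counted SNP-overlapping reads per RefSeq gene (GRCm38) and allele with Allelome.PRO2. The deposited counts are whole reads and not normalized. The deposited allelic ratio is a fraction rounded to 2 decimals and entered only an alternative, and the deposited score was not used. The authors removed doublets from their expression matrices with DoubletFinder. Whether the nuclei pooled here were limited to those that passed is not given in the sources used here, and pooled counts allow no doublet call. Whether duplicate reads were collapsed is likewise not given. If they were kept, reads of the same molecule are not independent, and the intervals are too narrow even for counting error.

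RPM, their ratios and allelic ratios were computed from the counts in Python 3.11.15 with scipy 1.17.1 and pandas 2.3.3. Intervals are Clopper-Pearson for shares and allelic ratios, exact Poisson for RPM, exact conditional binomial for ratios and Newcombe for changes in allelic ratio. The functions were tested on simulated independent reads. No test between ages was possible with 1 library each. Genes with at least 20 reads in each library formed the background. Members, lists and limits were chosen with earlier results of these data known. Besides the laminin genes, the text names the 6 most read genes of each list of partners and those past 1.5-fold, the 2 most read markers of each cell type and the 2 genes nearest in pattern. Coordinates are those of the files, counted from 1, and strands and exons come from GENCODE M21. Rxylt1 was found under its older symbol Tmem5, and Kcnj8 was not analysed here. Some genes that this rule would name are not reported here. Other scales, alleles, limits and minimums were tried as alternatives.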

Additional observations from a re-analysis of the deposited data

How the results depend on the processing

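No paired analysis was possible because each age has 1 library, and for the same reason no library could be left out. No alternative turned the direction of a value. The aged over adult ratio of the summed laminin reads (0.960) was 0.929 without the 50 most read genes, 0.823 with the median ratio of all genes set to 1, and 0.990 relative to the locus length class, an alternative chosen after seeing the data, as was taking off the reads of overlapping loci. The count of laminin genes at least 1.5-fold higher in the aged library (1) was 3 with BL6 reads and 2 with CAST reads only, 4 at a limit of 0.32 on the log2 scale and 0 at 2-fold. The count at least 1.5-fold lower (1) was 0 with CAST reads only, 2 at 0.32 on the log2 scale, 0 at 2-fold and 0 with a minimum of 100 reads. The share of Lama2 among alpha chain reads was 79.5% (BL6), 88.5% (CAST) and 49.8% (per kb of locus) in the adult and 75.9%, 85.8% and 42.1% in the aged library. The count of allelic ratios that differed by 0.1 or more (1) was 0 with a minimum of 100 reads and 2 at a limit of 0.05, and that of allelic ratios of 0.6 or more in both libraries (0) was 2 at a limit of 0.55. The causes were not tested. Of the other values, 30 for sums and counts and 46 for single genes moved by no more than their counting error or 1.5 times, and 17 for single genes moved further. Depth limits Lama3 and Lamb2 most.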

Other observations

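The allelic ratios of some partners of laminin also differed between the libraries. Col4a1 and Col4a2, whose chains form the common collagen IV trimer, stood at 0.560 (0.530 to 0.590) and 0.602 (0.567 to 0.637) in the adult heart. In the aged heart these were 0.667 (0.638 to 0.695) and 0.671 (0.638 to 0.703), so both lay further on the BL6 side. The change of Col4a1 (adult minus aged) was −0.107 (−0.147 to −0.0663), and 2.30% of autosomal genes with at least 1000 reads in the shallower library changed at least as much. For Col4a2, with a change of −0.0688 (−0.116 to −0.0216), 32.6% of genes with 100 to 999 reads did. Col4a1, with 1098 and 1111 reads, lies near the lower edge of its class. Col4a2, with 777 and 815, lies near the upper edge of its own. Of the autosomal genes in these classes, 3.32% and 17.0% changed by 0.1 or more, so the percentages of Col4a1 and Col4a2 are not comparable. The loci of Col4a1 and Col4a2 adjoin on chromosome 8. Lamb1, on another chromosome, differed in the same direction.

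Itga6 differed the other way, from 0.617 (0.548 to 0.683) to 0.428 (0.357 to 0.501), a change reached by 2.29% of genes in its class of 100 to 999 reads. Nid2, which falls outside the rule for named genes and was chosen after its values were seen, went from 0.460 (0.409 to 0.512) to 0.643 (0.585 to 0.699), a change reached by 2.53% of the genes of that class. The X-linked Col4a5 had 30 CAST reads of 3952 in the adult and 51 of 1232 in the aged heart, with allelic ratios of 0.992 (0.989 to 0.995) and 0.959 (0.946 to 0.969). In the class of 100 to 999 reads, Pomk changed by −0.195 and Col15a1, also outside the rule, by 0.176 (adult minus aged). These changes were reached by 1.99% and 2.78% of the genes of that class. The genes of this section were picked by their allelic values from lists of 16, 9 and 12 genes. Small percentages are therefore no measure of how rare such changes are among the partners. Each of these values rests on 1 heart per age.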
